A study of Mus musculus with 6 samples.

Results

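The genes described here are feedback targets of fibroblast growth factor (FGF) and ERK signalling: the Sprouty genes Spry1, Spry2 and Spry4, the Sprouty-related genes Spred1 and Spred2, the phosphatase Dusp6, and the ETS transcription factors Etv1, Etv4 and Etv5. They were chosen by name, from probe sets of the Mouse Genome 430 2.0 array whose annotation gives exactly 1 gene symbol, with the brightest probe set standing for each gene. Of the 9 genes, 8 were measured, by 26 of the 45037 probe sets, and all 8 were among the 13717 of 18193 genes that passed the filter on low signal. The 3 probe sets that name Etv1 also name Gm5454, so no value is given for Etv1.

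The arrays compare 2 tissue layers that were dissected from wild-type FVB/N embryos on embryonic day 13, Theiler stage 21, from the region of bladder neck and urethra: epithelium, arrays 1, 2 and 5, and the mesenchyme around it, arrays 1, 2 and 3. The labels' texts differ on where the bladder was cut relative to the ureters. All tissue was trypsin-treated and parted with a needle, and all RNA was amplified in 2 rounds before labelling. The labels give no sex, say that no sample was a pool, and do not tie arrays to embryos, so p-values measure the spread between these arrays, which may be technical. Signals below are in normalized signal units, and a difference is epithelium minus mesenchyme on the log2(signal + 16) scale with the standard error (SE) of limma, a linear model fitted over all genes, from 3 arrays per layer.

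When an FGF receptor is engaged, the signal passes through Ras and a chain of kinases to ERK, which enters the nucleus and acts on transcription factors. The genes described here are among those that ERK activity commonly turns on: Sprouty and Spred proteins restrain the pathway around Ras and Raf, Dusp6 removes the activating phosphates from ERK in the cytoplasm, and Etv4 and Etv5 are transcription factors that carry FGF responses into gene expression. Their transcripts are widely used as a readout of FGF activity in embryos, although other receptor tyrosine kinases feed the same pathway. In the urogenital tract, as in other branching or budding organs, FGFs made by mesenchyme are known to act on receptors of the epithelium.

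Array mesenchyme 1 stood apart, so the difference of each gene between the layers is given with and without it. Its correlation across genes (not independent replicates) was r = 0.784 with mesenchyme 2 and 0.755 with mesenchyme 3, and theirs with each other was 0.981. Mesenchyme 2 and 3 correlated more closely with every epithelial array (r = 0.834 to 0.875) than with mesenchyme 1. Of 20 measured markers of other organs, 13 read over 4-fold above every other array on mesenchyme 1, among them Alb of liver (58365, elsewhere at most 216) and Cpb1 of pancreas (33800, elsewhere at most 312). The 17 measured epithelial markers summed to 296906 to 331086 on the epithelial arrays, to 19738 and 3544 on mesenchyme 2 and 3, and to 108548 on mesenchyme 1. The 16 mesenchymal markers summed to 302323 to 359325 on the mesenchymal arrays and 46014 to 62257 on the epithelial ones. By these sums each layer was highest in its own markers, but mesenchyme 1 held epithelial ones too. Krt5 read 11949 there and 12443 to 26603 in epithelium, and Rab25 (1114) lay inside the epithelial range of 1089 to 1874. Grhl2 read 565 on mesenchyme 1 and 9861 to 15543 in epithelium. Single mesenchymal markers differed on mesenchyme 1 in both directions. Twist1 read 467 there, 333 to 724 in epithelium, and 3389 and 4294 on mesenchyme 2 and 3. Tcf21 read 261, 370 to 1050, and 2754 and 1815 in the same order. Col1a1 read 27273 on mesenchyme 1, and 5443 and 5090 on mesenchyme 2 and 3. Lum read 18393, and 2771 and 1434 in the same order. These 2 of the 16 were over 4-fold above every other array on mesenchyme 1. Bright markers varied too: Vim read alike on all mesenchymal arrays (54917 to 59268). Postn read 35774, 18771 and 13853 on mesenchyme 1, 2 and 3, and Prrx1 9852, 20017 and 26907. The mesenchyme also held other cells: the sum of 10 endothelial markers was 20900 to 31851 there against 1142 to 3030 in epithelium, and that of 9 measured of 10 neuronal markers 28010 to 64832 against 23087 to 25403. The epithelial sum was nearly all Isl1 (21092 to 24291), a homeobox factor that neurons share with other cells. Isl1 read 978 on mesenchyme 1, and 25468 and 27174 on mesenchyme 2 and 3. Without this gene, singled out after its values were seen, the other 8 summed to 1112 to 1995 in epithelium and 27032 to 39364 in mesenchyme. For 9 skeletal muscle markers the sums were 109325 on mesenchyme 1, and 25733 and 14363 on mesenchyme 2 and 3, against 631 to 1377. For 9 leukocyte markers they were 53600 on mesenchyme 1, and 12784 and 8916 on mesenchyme 2 and 3, against 3121 to 6494. Of the 8 leukocyte markers tested in limma, 0 reached adjusted p 0.05 with all arrays. Without mesenchyme 1, 2 did, higher in mesenchyme. The part that these cells, or the other tissue on mesenchyme 1, have in the differences below was not tested, and in such bulk samples fewer cells of a type and less RNA per cell cannot be told apart.

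With all 6 arrays none of the 8 genes passed limma's threshold of adjusted p 0.05, and without mesenchyme 1 only Spry4 did, higher in mesenchyme. Of all tested genes, 5.98% passed with all arrays, and 14.5% in the smaller fit (8.17% higher in mesenchyme). The unadjusted p was under 0.05 for 4 of the 8 (Spry2, Spry4, Spred2 and Dusp6) and for 19.5% of all genes. The arrays of the layers did not overlap for these same 4 genes, 3 of them higher in epithelium (15.5% of all genes) and Spry4 higher in mesenchyme (13.2% of all genes). The median difference of the 8 was 0.44, against 0.12 over all tested genes, and 0.27 against 0.021 without mesenchyme 1. With so few genes these shares say nothing particular about the set.

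**Figure D1:**
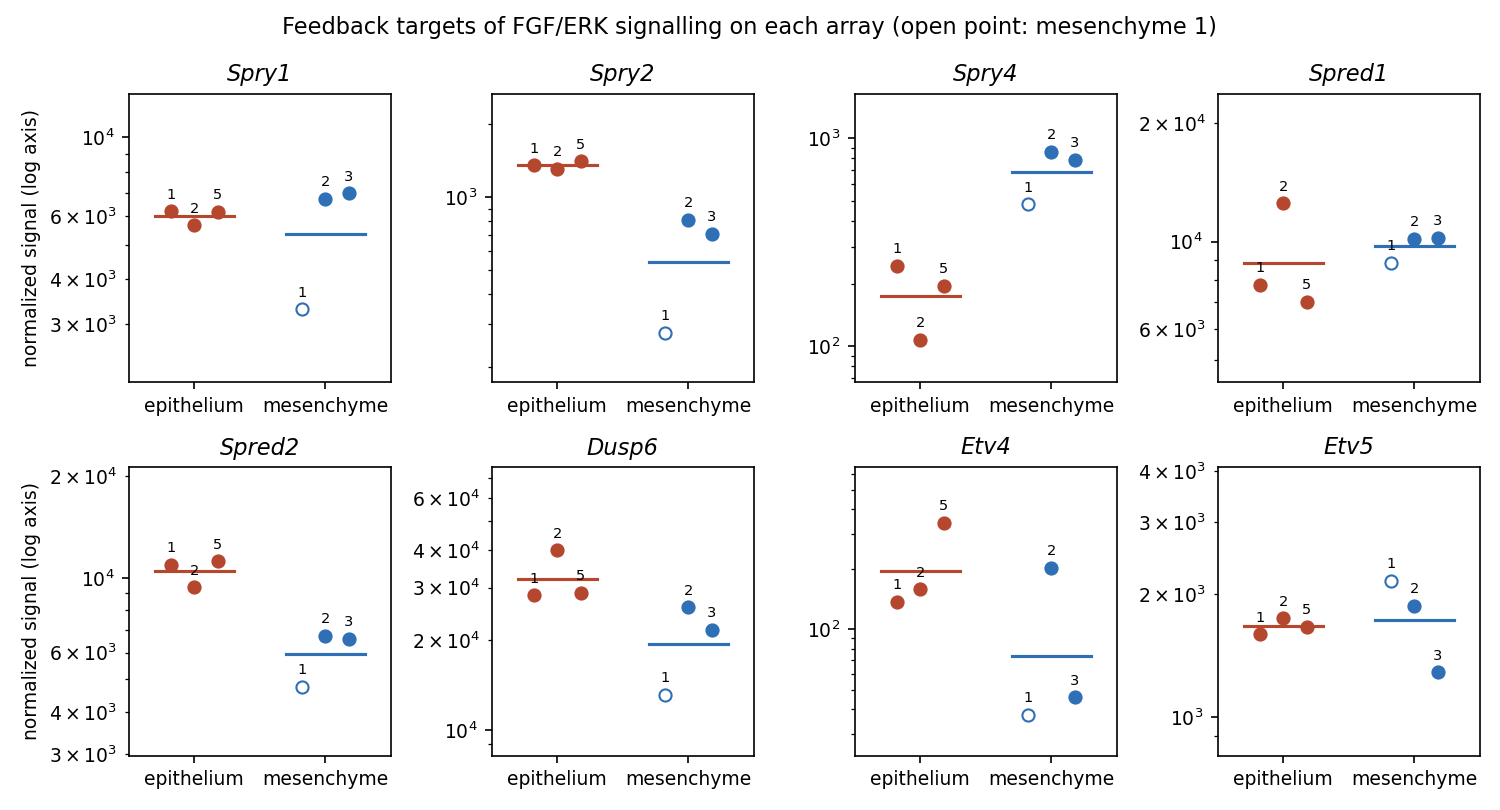
Normalized signal of the brightest probe set of each gene on each array, on log axes whose ranges differ between genes. Points carry the array number, horizontal lines are layer means of log2 values, and the open point is mesenchyme 1. The layers do not overlap for Spry2, Spred2 and Dusp6 (higher in epithelium) and Spry4 (higher in mesenchyme).

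Promoter sequences are shown for Dusp6, Spred2 and Spry2, the 3 genes whose epithelial arrays all lay above the mesenchymal ones, as the 250 bases before the annotated start, read 5′ to 3′ on the gene's strand from RefSeq (GRCm38.p6). Capitals mark AGGAAG or its reverse complement, a form of the core bound by ETS factors of the group that holds Etv4 and Etv5.
Dusp6 (chr10:99262981-99263230, plus strand): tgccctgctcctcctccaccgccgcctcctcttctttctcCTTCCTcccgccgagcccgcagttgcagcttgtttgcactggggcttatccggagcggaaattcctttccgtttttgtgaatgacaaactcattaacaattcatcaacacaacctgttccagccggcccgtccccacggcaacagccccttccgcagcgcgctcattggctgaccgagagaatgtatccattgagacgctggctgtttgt
Spred2 (chr11:19924192-19924441, plus strand): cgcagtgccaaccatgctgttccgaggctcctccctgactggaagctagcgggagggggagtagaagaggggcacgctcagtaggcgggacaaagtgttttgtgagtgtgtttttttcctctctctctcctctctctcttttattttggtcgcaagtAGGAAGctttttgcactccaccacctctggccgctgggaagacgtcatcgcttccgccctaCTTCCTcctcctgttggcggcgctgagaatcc
Spry2 (chr14:105896820-105897069, minus strand): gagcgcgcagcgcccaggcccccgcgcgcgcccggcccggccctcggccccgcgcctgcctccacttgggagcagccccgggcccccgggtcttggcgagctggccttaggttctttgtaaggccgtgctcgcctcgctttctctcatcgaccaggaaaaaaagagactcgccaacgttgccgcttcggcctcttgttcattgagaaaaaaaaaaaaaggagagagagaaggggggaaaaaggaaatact
The motif AGGAAG, searched on both strands, occurred 2 times before Spred2, 1 time before Dusp6 and not before Spry2, and 29.5% of 32851 promoter windows of this length hold it. Of the 9 windows of 7 of the genes, 3 held it: those of Spred2 and Dusp6 and a window of Etv1. The windows of Spry1, Spred1 and Etv5 did not. No window is given for Spry4 or Etv4. Neither the ETS motif CCGGAA (12% of windows) nor the AP-1 motif TGANTCA (6.75%) occurred in the windows of these 3 genes, nor in those of Spry1, Spred1 and Etv5. A match is a description of these letters, not a bound site.

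The Sprouty genes, which encode membrane-associated inhibitors of receptor tyrosine kinase signalling, differed among themselves. Spry4 read 244, 107 and 196 on epithelium 1, 2 and 5 and 482, 862 and 788 on mesenchyme 1, 2 and 3. Every mesenchymal array lay above every epithelial one, the lowest mesenchymal value being that of mesenchyme 1. The difference was -1.90 ± 0.448 SE (3.73-fold higher in mesenchyme, 95% interval -2.95 to -0.85, adjusted p = 0.0555 in limma), just short of the threshold. Without mesenchyme 1 it was -2.20 ± 0.404 (4.59-fold, adjusted p = 0.0115), and the call also appeared with all arrays when the values were not normalized further (adjusted p = 0.0476) or the variance was fitted without an intensity trend (adjusted p = 0.0472). The epithelial signals, 107 the lowest, are near the filter level of 96.3 signal units, so the size of the fold depends on the offset: the difference was -1.65 (adjusted p = 0.0515) with an offset of 64 and -1.99 (adjusted p = 0.0585) with 1.

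Of the other 3 probe sets of Spry4, 1445669_at had the same direction, with 170, 166 and 19 in epithelium and 229, 701 and 757 in mesenchyme. Its layers did not overlap, and its difference was -2.28 ± 0.782 (adjusted p = 0.204 in limma over all probe sets, 0.0595 without mesenchyme 1, where 9.47% of probe sets passed). Probe set 1440867_at read 193, 269 and 490 in epithelium and 169, 234 and 276 in mesenchyme, which overlap, for a difference of 0.39 (adjusted p = 0.708). The fourth, 1422020_at, read 11 to 37 on all arrays, below the filter level. The Spry4 result thus rests on 1 probe set and a second of like direction, while another of similar brightness did not share it.

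Spry2 leaned the other way. It read 1354, 1314 and 1412 in epithelium and 277, 809 and 707 in mesenchyme, in array order. The epithelial values lay within a narrow range above all mesenchymal ones, and mesenchyme 1 was the lowest array by far. The difference of 1.30 ± 0.451 (2.46-fold, 95% interval 0.24 to 2.36) did not pass (adjusted p = 0.168), and without mesenchyme 1 it was 0.86 ± 0.245 (1.82-fold, adjusted p = 0.0622). The dimmer probe set of Spry2 read 117 to 202 in epithelium and 83 to 135 in mesenchyme, which overlap (difference 0.53 ± 0.441, adjusted p = 0.596).

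Spry1, the Sprouty best known from the budding of the kidney duct, read 6194, 5675 and 6188 in epithelium and 3295, 6735 and 6978 in mesenchyme. Mesenchyme 2 and 3 lay above all epithelial arrays and mesenchyme 1 below them, so the direction depended on that array. The difference was 0.16 ± 0.337 with it (95% interval -0.63 to 0.95, adjusted p = 0.822) and -0.19 ± 0.195 without it (-0.65 to 0.27, adjusted p = 0.626). The second interval holds no difference as large as 2-fold in either direction.

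**Figure D2:**
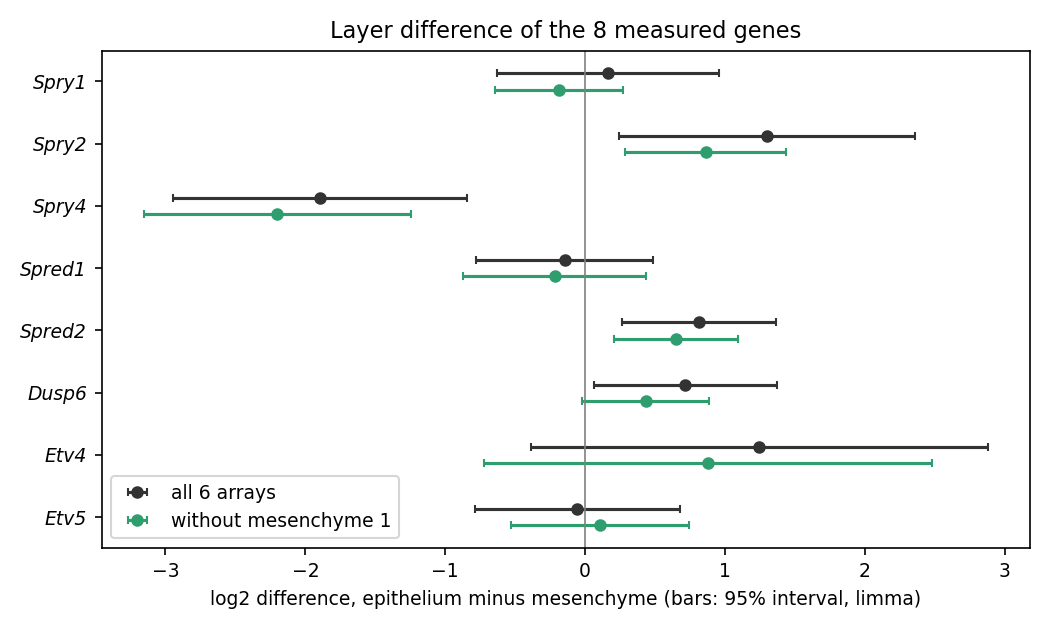
Log2 difference between the layers for each gene (positive, higher in epithelium) with its unadjusted 95% interval from limma, for all 6 arrays (black) and without mesenchyme 1 (green). The intervals of Spry2, Spred2 and Spry4 exclude 0 in both fits, that of Dusp6 only with all arrays, and Spry1 and Etv5 change sign between the fits.

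The Spred proteins share the cysteine-rich Sprouty domain and, in mammalian cells, bring the Ras inactivator neurofibromin to the membrane. Spred2 read 10946, 9382 and 11199 in epithelium and 4757, 6741 and 6594 in mesenchyme. No mesenchymal array reached the lowest epithelial one. The difference was 0.81 ± 0.235 (1.76-fold, adjusted p = 0.102), and 0.65 ± 0.188 without mesenchyme 1 (1.57-fold, adjusted p = 0.0656). This rests on the brightest probe set: the 2 dimmer ones past the filter had differences of -0.53 ± 0.407 and -1.19 ± 0.792, each with overlapping layers (adjusted p = 0.569 and 0.506), and the mean of the probe sets was -0.30 (adjusted p = 0.69).

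Spred1 read 7757, 12516 and 7025 in epithelium and 8843, 10174 and 10232 in mesenchyme, the mesenchymal values falling inside the epithelial range. Its difference was -0.14 ± 0.269 (95% interval -0.78 to 0.49, adjusted p = 0.8), and -0.22 ± 0.277 without mesenchyme 1. The brightest set, 1423161_s_at, can match several transcripts. The next brightest, 1423160_at, read 9937, 7563 and 8701 in epithelium and 7478, 9946 and 9991 in mesenchyme (-0.061 ± 0.229, 95% interval -0.60 to 0.47). Of the 7 probe sets of Spred1 past the filter none passed the threshold, as against 3.66% of all probe sets. The largest difference among them was that of 1423162_s_at (1.08 ± 0.473, adjusted p = 0.322), which read 812 to 918 in epithelium and 194 to 601 in mesenchyme with no overlap.

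Dusp6, the ERK phosphatase, read 28284, 40038 and 28896 in epithelium and 13156, 25784 and 21666 in mesenchyme. All epithelial arrays lay above the mesenchymal ones, with mesenchyme 1 lowest. The difference was 0.72 ± 0.278 (1.64-fold, 95% interval 0.064 to 1.37, adjusted p = 0.214), and 0.43 ± 0.192 without mesenchyme 1 (1.35-fold, 95% interval -0.021 to 0.89, adjusted p = 0.211). This gene has 1 probe set on the array, so no check by another was possible. The gap between mesenchyme 2 and the lowest epithelial array was small beside the spread within epithelium.

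The ETS factors gave no call. Etv4 was dim, at 138, 159 and 341 in epithelium and 37, 203 and 46 in mesenchyme, where mesenchyme 2 lay inside the epithelial range. Its difference of 1.25 ± 0.695 had a wide interval (-0.39 to 2.88, adjusted p = 0.38), as did the 0.88 ± 0.676 without mesenchyme 1 (-0.72 to 2.48), so neither equal levels nor a 4-fold excess in epithelium lies outside it. The signal of Etv4 on 2 of the 3 mesenchymal arrays was below the filter level, and its other probe set did not pass the filter.

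Etv5 read 1594, 1744 and 1663 in epithelium and 2151, 1872 and 1286 in mesenchyme. The mesenchymal arrays lay on both sides of the epithelial ones. Its difference was -0.054 ± 0.312 (95% interval -0.79 to 0.68, adjusted p = 0.937), and 0.10 ± 0.269 without mesenchyme 1 (-0.53 to 0.74). Neither interval reaches a 2-fold difference. The other 2 probe sets gave 0.41 ± 0.689 and 0.10 ± 0.524.

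**Figure D3:**
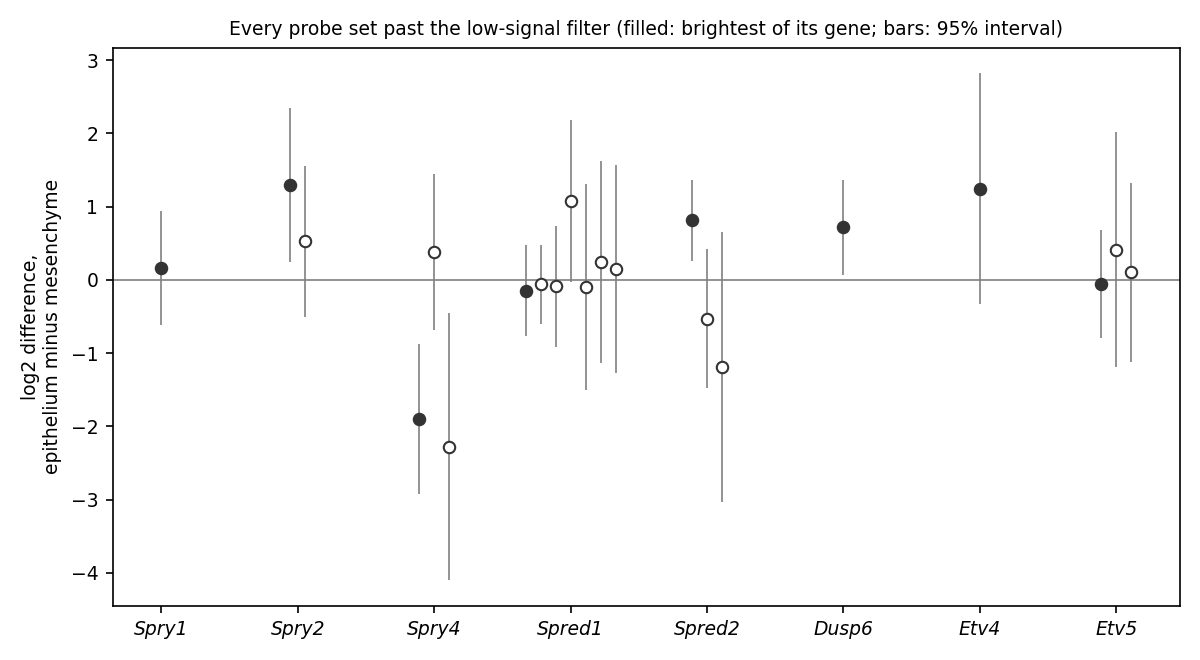
Log2 difference between the layers, with 95% intervals, for the 21 of 26 probe sets that passed the filter, from a fit over all 27022 probe sets and all 6 arrays. Within each gene the sets run from brightest (filled) to dimmest. For Spry4 the brightest and the dimmest sets lie below 0 and the other above it, and for Spred2 only the brightest lies above 0.

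On mesenchyme 1 the genes read low. Of the 8, 7 lay below both mesenchyme 2 and 3 there, as did 55.4% of all tested genes, the exception being Etv5. For 5 of the 8 it was the lowest of all 6 arrays (38.7% of all genes). The median shift of mesenchyme 1 from the mean of mesenchyme 2 and 3 was -0.80 over the 8 genes and -0.23 over all genes, from -1.40 for Spry2 to 0.47 for Etv5. That array also had the highest sum of epithelial markers among the mesenchymal arrays. Without it, the differences of Spry2, Spred2 and Dusp6 were smaller and that of Spry4 was larger.

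Over the 6 arrays, the profiles of Dusp6 and Spred2 were the closest pair. Each profile was centred on its own mean, and the root mean square difference per array was 0.281 log2 units for this pair. Next came Spred1 and Etv5 (0.359), Spry1 with Dusp6 (0.362) and with Spred2 (0.379), and Spry2 with Dusp6 (0.392) and with Spred2 (0.396). The farthest pairs all held Spry4, at 1.72 from Etv4 and 1.64 from Spry2. Among all tested genes the nearest to Spry4 was Ptprr, a receptor-type tyrosine phosphatase (0.139, median over all genes 1.19), followed by Esyt1 and Unc80. Nearest to Dusp6 were Mta2 (0.0534, median 0.624), Paip2b and Fancl, and nearest to Spred2 Srsf5 (0.0288), Rars2 and Ccdc149. Spry2 lay nearest to Arv1 (0.0871), Spry1 to Tspan6 (0.0564), Spred1 to C9orf72 (0.0242), Etv4 to Tgfb1 (0.357) and Etv5 to Ptdss1 (0.0535). With 6 values a close match is easy to find among so many genes: of the 24 nearest genes, 3 for each of the 8, only 4 (Ptprr, C9orf72, Srsf5 and Ptdss1) were again among the 3 nearest without mesenchyme 1.

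Upstream in the pathway, 2 FGF receptors were higher in epithelium, and no FGF ligand passed with all arrays. Of 5 FGF receptors, 2 passed, both higher in epithelium: Fgfr2, the receptor of Fgf7 and Fgf10 in its epithelial form, read 20637 to 22761 there and 6983 to 9906 in mesenchyme (1.31 ± 0.204, adjusted p = 0.0139), and Fgfr3 read 9380 to 10436 against 341 to 3099 (3.20 ± 0.712, adjusted p = 0.0449). The probe set used for Fgfr2 can match several transcripts, and the forms of the receptor were not told apart. The call of Fgfr2 was lost with median centring (adjusted p = 0.0572) and that of Fgfr3 without a filter (adjusted p = 0.0555) or a variance trend (adjusted p = 0.0652). The median of the 5 was -0.31. Without mesenchyme 1 both passed (1.14 and 4.03), as did Fgfr1, common in mesenchyme (-1.35, adjusted p = 0.013). Of 22 FGF ligands, 11 were tested and 0 passed in limma (4 at an unadjusted p under 0.05, median -0.52). The brightest were Fgf13, an intracellular relative, at -0.79 (adjusted p = 0.122), and Fgf9 at -1.12 (adjusted p = 0.537). Fgf9 read 478 to 1356 in epithelium and 355, 3531 and 2693 on mesenchyme 1, 2 and 3, and was the 1 ligand to pass without mesenchyme 1 (-2.20, adjusted p = 0.026). Fgf7 read 12 to 263 in epithelium and 454 to 971 in mesenchyme (-2.49, adjusted p = 0.175 in limma). Fgf10, dimmer still, read 55 to 129 against 138 to 368 (-1.26, adjusted p = 0.273). Fgf1 (1.54, adjusted p = 0.172) and Fgf11 (1.52, adjusted p = 0.207), also dim, leaned to epithelium.

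Of 22 other receptor tyrosine kinases, which also feed ERK, 5 were higher in mesenchyme, 1 was higher in epithelium and 16 did not pass (median -0.41). Of the 820 calls over all genes, 553 were likewise higher in mesenchyme. Without mesenchyme 1, 9 of the 22 were higher in mesenchyme and 3 in epithelium. Those with the largest differences were the endothelial receptors Kdr (-4.03) and Tek (-3.43), the neurotrophin receptor Ntrk3 (-3.64) and the collagen receptor Ddr2 (-3.06), with adjusted p from 0.00852 to 0.0287. Of 15 tested genes of the cascade from Ras to ERK, 1 passed, the adaptor Gab2 (-1.46 ± 0.314, adjusted p = 0.0408), and the median of the list was 0.048. The Gab2 call was lost under 7 of 12 other settings with all arrays, among them no further normalization (adjusted p = 0.0501), median centring (adjusted p = 0.235), no filter (adjusted p = 0.0503) and the mean of probe sets (-0.88, adjusted p = 0.169), and on leaving out any single array but mesenchyme 1 (without it -1.49, adjusted p = 0.0278). Its relative Gab1 stood at 0.40 (adjusted p = 0.175, and 0.36 without mesenchyme 1) and the phosphatase Ptpn11, which links receptors to Ras, at -0.26 (adjusted p = 0.522, and -0.094 without mesenchyme 1).

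Among 26 other feedback regulators of receptor tyrosine kinases and ERK, 1 passed with all arrays, Spsb1, which encodes a SOCS-box protein, higher in mesenchyme (-1.27 ± 0.275, adjusted p = 0.0413). The Spsb1 call was lost under 3 of 12 other settings with all arrays. Averaging its probe sets shrank the difference to -0.22 (adjusted p = 0.737 in limma), and median centring left -1.19 (adjusted p = 0.251). Of the 6 fits that each left out 1 array, 5 lost the call, which held without mesenchyme 1 (-1.38, adjusted p = 0.0105). The median of the list was 0.020, and 2 genes higher in epithelium and 4 higher in mesenchyme passed without mesenchyme 1. One of the brightest, Errfi1, an inhibitor of the EGF receptor, read 40496 to 59483 in epithelium and 22003 to 38127 in mesenchyme (0.77, adjusted p = 0.121, and 0.97 with adjusted p = 0.0147 without mesenchyme 1). Flrt2, a membrane protein of a family that binds FGF receptors, read 3810 to 5958 against 8244 to 29935 (-1.94, adjusted p = 0.0649, and -2.49 with adjusted p = 0.0014 without mesenchyme 1). The phosphatases Dusp4 (1.10), Dusp5 (1.19), Dusp7 (0.84) and Dusp9 (1.43) were counted among the 26 and did not pass with all arrays. Without mesenchyme 1 they stood at 1.04, 0.46, 0.28 and 1.01, and of these Dusp4 passed (adjusted p = 0.0374 in limma). The 5 MAP kinase phosphatases listed apart from the 26 gave 0 calls (1 at an unadjusted p under 0.05 in limma, median 0.66), Dusp1 standing at 0.26 and Dusp16 at 0.77. Without mesenchyme 1 Dusp16 passed, higher in epithelium (0.91, adjusted p = 0.0313), and Dusp1 stood on the other side of 0 (-0.55, adjusted p = 0.0639).

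Of 14 genes listed as immediate-early, which ERK and stress raise early, though not all equally fast, 1 passed. This was Fosl1, a partner of Jun, which read 1273 to 1792 in epithelium and 37.5 to 163 in mesenchyme (3.70 ± 0.531, adjusted p = 0.011). The median of the list was 0.91 with all arrays and 0.18 without mesenchyme 1. In that smaller fit 4 of the 14 passed, all higher in epithelium, beside 14.5% of all genes in either direction (8.17% higher in mesenchyme). The brightest others were Egr1 (0.69, adjusted p = 0.573) and Fos (0.90, adjusted p = 0.452). Without mesenchyme 1, Egr1 stood at -0.11 (adjusted p = 0.612) and Fos at 0.12 (adjusted p = 0.559). Fos read 8497 on mesenchyme 1 against 40749 to 48293 on the other 5 arrays. Of 19 other tested ETS factors, 2 were higher in epithelium and 3 in mesenchyme (median 0.015), among them Elf5 of glandular epithelia (5.90) and the endothelial factors Fli1 (-4.00), Erg (-3.24) and Ets1 (-3.09), with adjusted p from 0.0162 to 0.0352. Without mesenchyme 1, 4 of these factors were higher in each layer.

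**Figure D4:**
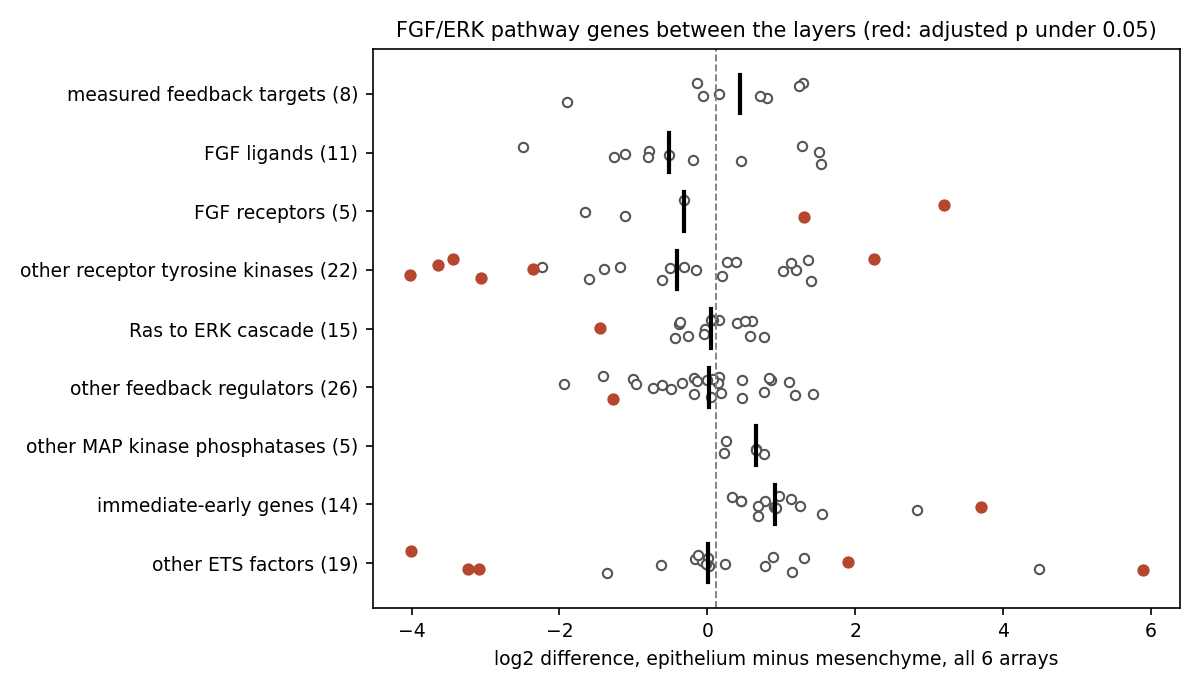
Log2 difference between the layers (positive, higher in epithelium) for the tested genes of each pathway list, with the number of genes in brackets, from all 6 arrays. Red points passed adjusted p 0.05, black bars are list medians and the dashed line is the median of all tested genes, 0.12. The 8 feedback targets hold no red point, and the receptors and ETS factors spread the widest.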

How the data were processed

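Probe set intensity was measured on 6 Affymetrix arrays and deposited by the authors as linear values. The Affymetrix program GCOS made them, per the submitters' processing notes; which version and which settings is not given in the sources used here. The deposited values share a scaling, since their mean is 1500 on every array once the highest and lowest 2% are set aside. Array medians ran from 126 to 254. The table carries no detection calls and names no build.

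After leaving out 64 controls, log2(intensity + 16) was quantile normalized, and folds of dim genes are understated by the offset. Of the probe sets, 34945 name 1 gene, 932 several and 9160 none; 34741 were matched to RefSeq, changing 0 symbols. Probe sets above the 40th percentile of mean log2 signal were kept, the brightest standing for each gene. Epithelium was set against mesenchyme in limma 3.58.1, run in R 4.3.3 (lmFit, eBayes with trend, no covariate). P-values were adjusted by Benjamini and Hochberg's method over all genes. Other probe sets were fitted over all probe sets past the filter. The fit was tested on simulated data with independent noise of the same spread on every array. That simulation held no outlying array, so it cannot speak for the fit with mesenchyme 1. Members and gene lists were chosen with earlier results of these data known, and lists are described by counts and medians. Named genes are the members, up to 4 called genes of largest difference per list (the 2 brightest where fewer than 2 were called) and the nearest profiles. Fgfr1, Fgf1, Fgf7, Fgf10, Fgf11, Dusp4, Dusp5, Dusp7, Dusp9 and the values of marker genes were named after values were seen. Alternatives were other offsets, scalings, filters, probe set rules, variance models, array weights, a replicate block, and leaving out single arrays. The number of arrays limits the precision.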

Additional observations from a re-analysis of the deposited data

How the results depend on the processing

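None of the 8 genes was past the threshold with all arrays under the other offsets, median centring, either filter, the mean of probe sets, the probe sets that match 1 transcript, the robust variance or the replicate block. Spry4 was, as 1 of 8, without further normalization (-2.14), without a variance trend (-1.90) and without mesenchyme 1 (-2.20); over its 18 alternatives adjusted p in limma ran from 0.00138 to 0.485, the highest with the replicate block. Array quality weights, whose estimation stopped before it converged, called 5 of 8: Spry2 (0.98), Spry4 (-1.64), Spred2 (0.75), Dusp6 (0.43) and Etv4 (1.36), along with 5109 of all genes and 67 of the other pathway lists, and turned Spry1 to -0.12 and Etv5 to 0.27. Etv4 fell below the filter at the 60th percentile and without epithelium 5, and was at 1.88 without mesenchyme 2. Signs turned for genes near 0: Spred1 and Etv5 with median centring (0.057 and 0.0032), which moved the median of all genes from 0.12 to 0.23, and with the mean of probe sets (0.16 and 0.15), where Spred2 was -0.30 as well. Relative to the median of all genes, Spry1 was at 0.042 and Etv5 at -0.17. Leaving out 1 array moved the calls over all genes from 142 to 1975 (820 with all), those of the other pathway lists from 1 to 36 (16 with all, each of them lost on leaving out at least 1 array, Tek on 1 of 6 and Gab2 and Fgfr3 among others on 5) and those of the 8 genes from 0 to 1. The differences ranged from -0.19 to 0.35 for Spry1, -2.20 to -1.56 for Spry4, -0.22 to 0.038 for Spred1 and -0.26 to 0.10 for Etv5. Of the 24 nearest genes, 4 remained without mesenchyme 1. Arrays sharing number 1 or 2 deviated together at r = -0.045 and -0.021 across genes, and no label pairs them. The replicate block, with 1 residual degree of freedom, called 0 genes in limma in all and 0 of the pathway lists, and put Spred1 at 0.055. Other probe sets turned the sign for Spry4 (1440867_at, 0.39, and 0.21 without mesenchyme 1, an alternative added after seeing the data, as are the next such values), Spred1 (1423162_s_at 1.08 and 0.61, 1460116_s_at 0.25, 1443652_x_at 0.16), Spred2 (1441415_at -0.53 and -0.30, 1436892_at -1.19 and -1.36) and Etv5 (1450082_s_at 0.41 and 0.063, 1420998_at 0.10). The cause of these changes was not tested. Signals near the filter level, as for Etv4, Spry4 in epithelium and the dimmer sets, cannot be told from background here.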

Other observations

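The pair Spry2 and Spry4, chosen after its values were seen, can be set side by side within an array, as the log2 ratio of their signals, each with the offset of 16 added. The ratio of Spry2 to Spry4 was 2.40, 3.43 and 2.75 on epithelium 1, 2 and 5 and -0.77, -0.090 and -0.15 on mesenchyme 1, 2 and 3. That the layers do not overlap in this ratio follows from the 2 genes, neither of which overlapped, in opposite directions. In the ratio mesenchyme 1 lies nearer to the other mesenchymal arrays than to any epithelial one. The layer difference of the ratio was 3.20, and 2.98 without mesenchyme 1. With all arrays this is the difference of Spry2 less that of Spry4, both given above, so it is no further result. No test is given, since the pair was chosen for these values. The ratio shows unequal change of the 2 probe sets, not which of them differs, and the probe set 1440867_at of Spry4 does not share the direction of the one used.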
